A study of Mus musculus with 6 samples.

Results

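The branched-chain amino acids leucine, isoleucine and valine are burned by a short mitochondrial route, and 10 genes of that route were read in the hearts of sham-operated mice. The genes were chosen by symbol, not by their level, but with earlier results of these data known. They were the transaminases Bcat1 and Bcat2, the dehydrogenase subunits Bckdha, Bckdhb and Dbt, and the leucine enzymes Ivd, Mccc1 and Mccc2. The kinase Bckdk and phosphatase Ppm1k, which switch the dehydrogenase, completed the list. All 10 had a row among the 17447 gene rows of the count table. The series sequenced total RNA from hearts of wild-type mice with chronic kidney disease (CKD, 3 hearts), made by removing most of the kidney tissue in a pair of operations, and of wild-type mice given sham surgery (3 hearts), in which the abdomen was opened and the kidneys exposed but left whole. Every heart carried the same batch label. The labels state no age, sex or strain and no time after surgery. The labels number the hearts within a group without stating that each came from its own animal, so spread between hearts may be in part technical.

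Only the 3 sham hearts could be used for gene levels. Within a group the columns ranked the genes alike, with Spearman correlations across all rows of 0.984 to 0.987 among the CKD hearts and 0.982 to 0.985 among the sham hearts. Between CKD and sham columns the correlation was -0.059 to -0.053. The points of these correlations are genes of the same libraries, not replicates. Myh6, the main myosin heavy chain of the adult mouse heart, held 0, 0 and 1 counts in the CKD columns, against 362529, 443278 and 474768 in the sham columns. The row of Mccc1 held 0, 1 and 0 counts in the CKD columns, against 1402, 1533 and 1846 in the sham columns. Row labels and values of the CKD columns therefore did not match, and no CKD value is read as the level of a gene. In the sham columns the tissue label fitted its markers: 10 of 10 ventricular cardiomyocyte genes were present and took 12.4% to 13.8% of all counts, while the skeletal muscle myosins Myh1, Myh2 and Myh4 were at 0 counts. The sham totals were 10480788, 10474487 and 12669724 counts, and 0 counts would allow a level of up to 0.237 to 0.286 CPM (the count divided by the total of its column, times 1000000), for counting error only. The hearts were not alike in other cell types: 6 of 6 atrial markers were highest in sham 1 and lowest in sham 2 (0.261%, 0.00715% and 0.0518% of counts in sham 1, 2 and 3), 6 of 6 endothelial markers were lowest in sham 2 (0.123%, 0.1% and 0.133%), and 6 of 6 interferon-response and 5 of 5 erythroid genes were highest in sham 3 (0.0525% and 0.0485% there, against at most 0.00857% and 0.0111% in the other hearts). Of the 8864 genes with a mean of at least 10 CPM, 45.6% were lowest in sham 2, 36.9% highest in sham 1 and 39.6% highest in sham 3. Adipocyte markers took 0.00161% or less, and 1 of 6 lymphocyte markers averaged at least 1 CPM.

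As background, breakdown of these amino acids begins with a reversible transfer of the amino group to 2-oxoglutarate, which yields glutamate and a branched-chain keto acid. The branched-chain keto acid dehydrogenase, a large complex on the inner side of the mitochondrial inner membrane, then commits the carbon skeleton to oxidation. Bckdk phosphorylates the E1 alpha subunit encoded by Bckdha and turns the complex off, and Ppm1k removes the phosphate and turns it on. The route is well known in heart and skeletal muscle, where the keto acids made from leucine can be oxidised in the same cells.

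The switch acts on serines in E1 alpha, and the codons for that stretch are shown because kinase and phosphatase are compared through it. In the mouse coding sequence (GENCODE M21 transcripts, build GRCm38) they are codons 338 and 348 counted from the start codon. The stretch from codon 333 to codon 353 reads, 5′ to 3′ on the coding strand with the serine codons in capitals:
Bckdha: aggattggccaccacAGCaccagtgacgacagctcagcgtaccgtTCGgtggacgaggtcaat
The transaminase pair is shown by the stretch in which the coding sequences are most alike, because their counts can be compared only if reads of one are not taken for the other. Capitals mark the 12 of 60 bases that differ, in bases 995 to 1054 of the Bcat1 and 818 to 877 of the Bcat2 coding sequence:
Bcat1: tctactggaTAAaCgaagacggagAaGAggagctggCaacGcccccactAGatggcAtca
Bcat2: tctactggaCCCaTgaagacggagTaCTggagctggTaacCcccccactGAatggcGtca
Over 1182 aligned coding bases 63.9% were identical, and the longest run without a difference was 13 bases, also over the full transcripts.

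The transaminases stood far apart. Bcat1, the cytosolic form, which is known mainly from brain, ovary and some tumours, gave 11, 7 and 17 counts in sham 1, 2 and 3, or 1.05, 0.668 and 1.34 CPM. Bcat2, the mitochondrial form of muscle and most other tissues, gave 1074, 1368 and 1684 counts, or 102.5, 130.6 and 132.9 CPM. No Bcat1 value came near any Bcat2 value. Bcat1 averaged 1.02 ± 0.338 CPM, which placed it at percentile 28.5 of all rows, and Bcat2 averaged 122 ± 17.0 CPM at percentile 92.2 (SD, n = 3 each).

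Levels of different genes were set against each other per kilobase of coding sequence, since a longer RNA yields more reads. Coding length leaves out the untranslated parts of an RNA, which can also yield reads, so ratios with transcript length are given too. On that scale Bcat1 was 113-fold lower than Bcat2 in sham 1, 225-fold lower in sham 2 and 114-fold lower in sham 3. The 95% counting intervals (exact Clopper-Pearson, counting error only) were 62.6 to 226, 109 to 561 and 71.1 to 196. The geometric mean was a 142.5-fold lower level of Bcat1, and the mean log2 ratio was -7.15 ± 0.572 (SD, n = 3). All 3 hearts had the same direction. An exact two-sided sign-flip permutation test gave p = 0.25, the smallest p that 3 hearts can give, and 0.292 after Benjamini-Hochberg adjustment over the 7 ratios tested. Divided by the length of the whole transcript, which for Bcat1 includes a long untranslated part, the level of Bcat1 was 546.5-fold lower, so the order of the pair held while its size depended on the length used.

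**Figure D1:**
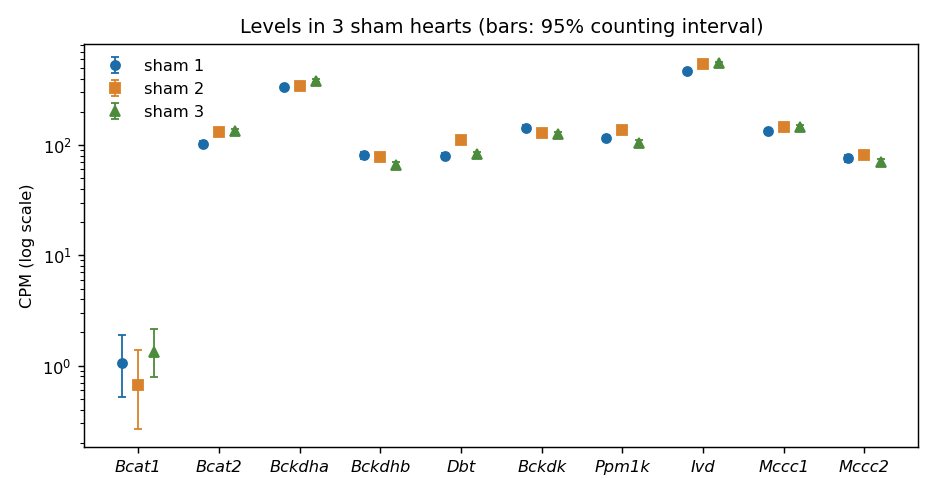
CPM (log axis) of the 10 genes in sham 1, 2 and 3, with exact 95% Poisson counting intervals; CPM is not corrected for gene length. Bcat1 lies between 0.668 and 1.34 CPM, and the 9 other genes lie between 66.1 and 549 CPM.

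The low Bcat1 counts could not separate the hearts. The 95% Poisson intervals were 0.524 to 1.88 CPM in sham 1, 0.269 to 1.38 in sham 2 and 0.782 to 2.15 in sham 3, so all of them overlapped. Counting alone would give a coefficient of variation (CV) of about 29.3%, and the observed CV was 33.1%. Bcat1 was lowest in sham 2 and highest in sham 3. All 8 macrophage markers had that order, with 0.0587%, 0.0465% and 0.0749% of the counts in sham 1, 2 and 3. Of 8 fibroblast markers, 8 were lowest in sham 2 and 6 highest in sham 3 (0.191%, 0.0964% and 0.224% in all). Over the 8864 genes with a mean of at least 10 CPM, 45.6% were lowest in sham 2 and 39.6% highest in sham 3. By summed share, endothelial, adipocyte (0.00156%, 0.000124% and 0.00161%), erythroid and interferon-response markers were also lowest in sham 2 and highest in sham 3. Other lists departed from that order by summed share. Ventricular cardiomyocyte markers went the other way in sham 2, with 12.5%, 13.8% and 12.4% in sham 1, 2 and 3 and 9 of 10 genes highest in sham 2. Skeletal muscle markers, from few counts, were highest in sham 1 (0.000105%). Pericyte and smooth muscle markers together were lowest in sham 1 (0.155%, 0.161% and 0.19%). Gene by gene, 5 of these 7 were lowest in sham 2 and 6 highest in sham 3. Atrial markers were highest in sham 1, and so were lymphocyte markers (0.000372%, 0.000143% and 0.000268%), of which 5 of 6 were lowest in sham 2. The part of these lists in the Bcat1 level was not tested, and in bulk RNA fewer cells of a type and less RNA per cell cannot be told apart.

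Among the dehydrogenase subunits, E1 alpha led. Bckdha gave 3539, 3603 and 4852 counts, or 337.7, 344 and 383 CPM. Bckdhb, which encodes the E1 beta subunit that pairs with E1 alpha, gave 843, 824 and 837 counts, or 80.4, 78.7 and 66.1 CPM. Dbt, the E2 core that carries the acyl group on lipoic acid, gave 832, 1161 and 1040 counts, or 79.4, 110.8 and 82.1 CPM. Sham 3 had the most Bckdha and the least Bckdhb. Dbt was highest in sham 2, while sham 1 and sham 3 lay close together.

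Per coding kilobase, Bckdha averaged 264.6 ± 18.3 CPM per kb and Bckdhb 64.0 ± 6.68 (SD, n = 3 each). Bckdha exceeded Bckdhb 3.67-fold in sham 1, 3.83-fold in sham 2 and 5.07-fold in sham 3, with counting intervals of 3.41 to 3.96, 3.55 to 4.13 and 4.71 to 5.46. The ratio of sham 3 thus lay outside the counting intervals of the other hearts. Dbt averaged 62.6 ± 12.03 CPM per kb and was 4.60-fold, 3.35-fold and 5.04-fold lower than Bckdha. Both ratios had 1 direction in all 3 hearts (exact sign-flip permutation p = 0.25 each, 0.292 after adjustment). Bckdhb and Dbt, at 56.3 to 68.6 and 54.8 to 76.5 CPM per kb, overlapped with this length, but with transcript length Bckdhb was 2.26-fold, 1.59-fold and 1.80-fold above Dbt, and with all annotated exons 1.88-fold, 1.32-fold and 1.49-fold. With transcript length Bckdha exceeded Bckdhb 3.69-fold, and Dbt was 6.87-fold lower than Bckdha.

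The Bckdha value carries a limit of annotation. In GENCODE M21, 61.7% of its exon bases are also covered, on the opposite strand, by exons of B3gnt8, a sugar transferase gene, but 0 of these bases by a protein-coding transcript of B3gnt8. B3gnt8 itself gave 22, 27 and 25 counts. Neither the annotation nor the strand setting behind the deposited counts is known here, so reads of the pair cannot be told apart. Of the other members, Bcat2 shares 15.9% of its exon bases with an antisense gene, Bcat1 3.62%, and Mccc1 2.93% or less with any single gene. Under their GENCODE symbols those neighbours had no row in the count table.

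The E3 subunit Dld, lipoamide dehydrogenase, also serves the pyruvate and 2-oxoglutarate dehydrogenases. Dld gave 6558, 7381 and 7440 counts and averaged 417.8 ± 39.1 CPM per kb. It exceeded Dbt 7.46-fold, 6.02-fold and 6.78-fold in the 3 hearts.

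The kinase and the phosphatase were close in level per coding kilobase, but with transcript length Bckdk was above Ppm1k in all 3 hearts. Bckdk gave 1497, 1332 and 1586 counts, or 142.8, 127.2 and 125.2 CPM. Ppm1k gave 1202, 1421 and 1329 counts, or 114.7, 135.7 and 104.9 CPM. By CPM, Bckdk was above Ppm1k in sham 1 and sham 3 and below it in sham 2. Per coding kilobase Bckdk averaged 106.3 ± 7.80 and Ppm1k 105.8 ± 14.1 CPM per kb (SD, n = 3 each), and the ranges overlapped.

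The Bckdk to Ppm1k ratio per coding kilobase was 1.12 in sham 1 (counting interval 1.04 to 1.22), 0.847 in sham 2 (0.785 to 0.913) and 1.08 in sham 3 (1.00 to 1.16). The mean log2 ratio was 0.01 ± 0.221 (SD, n = 3), with 2 of 3 hearts above 1 and an exact sign-flip permutation p = 1. The geometric mean was 1.01, and it was 0.955 without sham 1, 1.10 without sham 2 and 0.976 without sham 3. The definition of length moved this ratio by more than the hearts did. With transcript length it was 2.03, 1.53 and 1.95 in sham 1, 2 and 3, with all 3 hearts above 1 and a geometric mean of 1.82 (exact sign-flip permutation p = 0.25), because the Ppm1k transcript of 5560 bases is long beside its coding sequence of 1119 bases. Which length matches the deposited counts is not known, so which RNA was more abundant was not settled.

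Both regulators were lower than the substrate subunit. Bckdk was 2.18-fold, 2.50-fold and 2.83-fold lower than Bckdha in sham 1, 2 and 3, per coding kilobase. Ppm1k was 2.46-fold, 2.12-fold and 3.05-fold lower than Bckdha. The direction was shared by all 3 hearts for both (exact sign-flip permutation p = 0.25 each, 0.292 after adjustment), and with transcript length the geometric means were 4.83-fold and 8.81-fold lower.

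**Figure D2:**
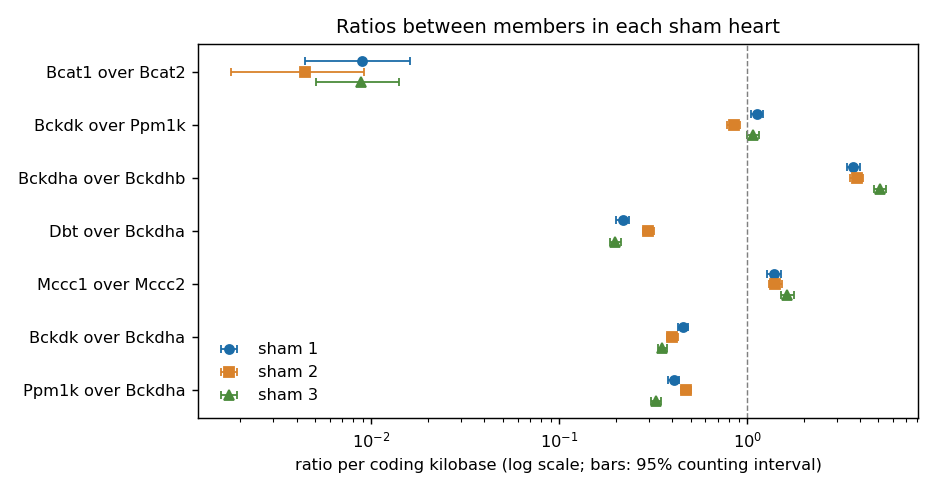
Ratios per coding kilobase (log axis) in sham 1, 2 and 3 with exact 95% counting intervals, and a dashed line at 1. Bcat1 over Bcat2 lies between 0.00444 and 0.00889, and Bckdk over Ppm1k is the only pair of the 7 with hearts on both sides of 1.

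The leucine branch held the highest member. Ivd, isovaleryl-CoA dehydrogenase, which oxidises the acyl-CoA made from leucine, gave 4922, 5686 and 6958 counts, or 469.6, 542.8 and 549.2 CPM, at percentile 98.6 of all rows. Mccc1, the biotin-carrying alpha subunit of methylcrotonyl-CoA carboxylase, gave 133.8, 146.4 and 145.7 CPM. Mccc2, the beta subunit of the same enzyme, gave 794, 851 and 887 counts, or 75.8, 81.2 and 70.0 CPM. Ivd and Mccc1 were lowest in sham 1 and nearly level between sham 2 and sham 3, and Mccc2 was lowest in sham 3.

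Per coding kilobase Mccc1 exceeded Mccc2 1.39-fold, 1.41-fold and 1.63-fold in sham 1, 2 and 3, a mean log2 ratio of 0.56 ± 0.129 (SD, n = 3; exact sign-flip permutation p = 0.25, 0.292 after adjustment). When all annotated exons were taken as length the direction turned, with a mean log2 ratio of -1.06. The exon total of Mccc1 there is 10952 bases, against 2455 bases for the transcript that holds its coding sequence. Auh, the hydratase that acts on the methylglutaconyl-CoA they make, averaged 115.4 ± 7.96 CPM per kb.

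In order of level per coding kilobase, Ivd came first at 408.3 ± 34.7 CPM per kb, then Bckdha, then Bckdk, Ppm1k and Bcat2 (103.2 ± 14.3) together, then Mccc1 (65.9 ± 3.29), Bckdhb and Dbt together, then Mccc2 (44.7 ± 3.32) and Bcat1 (0.749 ± 0.248). Neighbours in this order whose 3 values overlapped were Bckdk with Ppm1k, Ppm1k with Bcat2, Mccc1 with Bckdhb, and Bckdhb with Dbt. With either other length Bckdha came before Ivd, and Bcat1 stayed last. Ppm1k went to place 9 with transcript length and to place 8 with all annotated exons, against place 4 with coding length.

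**Figure D3:**
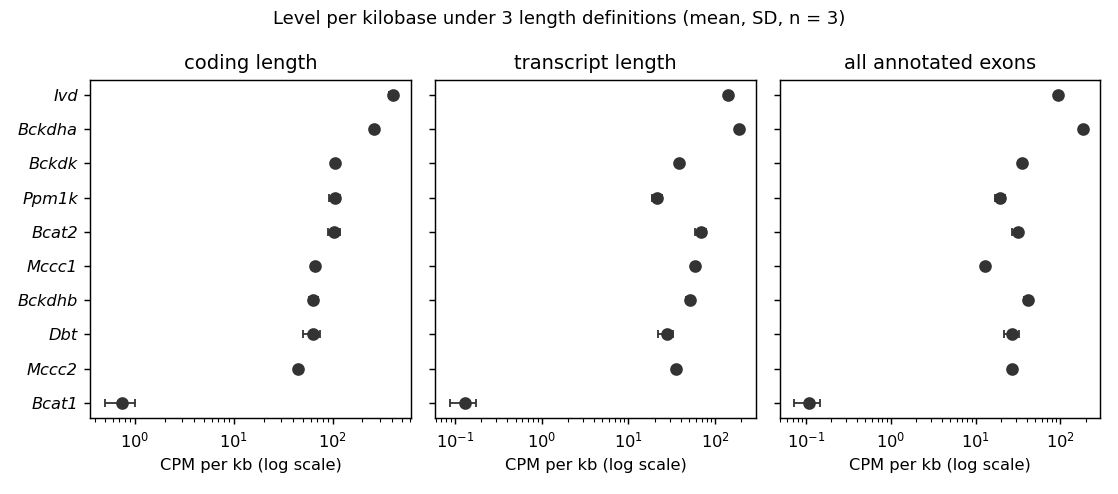
Mean CPM per kilobase with SD over 3 sham hearts (log axes), with length taken as the longest coding sequence, the transcript that holds it, or all annotated exons; genes run in the order of the first panel. Ivd and Bckdha lead and Bcat1 is last in each panel, while Ppm1k takes place 4, 9 and 8 in turn.

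The median spread between hearts was close to that of all genes with a mean of at least 10 CPM, but above that of the companion genes. The CV was 4.99% for Mccc1, 6.91% for Bckdha, 7.34% for Bckdk, 7.42% for Mccc2, 8.49% for Ivd and 10.4% for Bckdhb. It was 13.3% for Ppm1k, 13.9% for Bcat2 and 19.2% for Dbt, where counting alone would give 2.75%, 2.70% and 3.15%. The median over the 10 members was 9.47%, against 9.32% over the 8864 genes with a mean of at least 10 CPM, and 84.6% of those genes had a lower CV than Dbt. The 8864 genes had a lower median level, 38.0 CPM against 120.2 for the members, and they leave out Bcat1. Over the 20 other listed genes of the branched-chain route the median CV was 4.83%, and over all 32 companion genes 6.43%.

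No heart was high for all members. Of the 10 members, 2 were highest in sham 1 (Bckdhb and Bckdk), 4 in sham 2 (Dbt, Ppm1k, Mccc1 and Mccc2) and 4 in sham 3 (Bcat1, Bcat2, Bckdha and Ivd). Over the 8864 genes the shares were 36.9%, 23.5% and 39.6%. This count depends on scaling: with trimmed mean of M values (TMM) factors it was 1, 7 and 2 members, beside 29.0%, 41.2% and 29.8% of the genes. Ventricular markers moved with sham 2 as well, 9 of 10 being highest there. Their summed share was 12.5%, 13.8% and 12.4%, and their part in the spread of these genes was not tested.

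**Figure D4:**
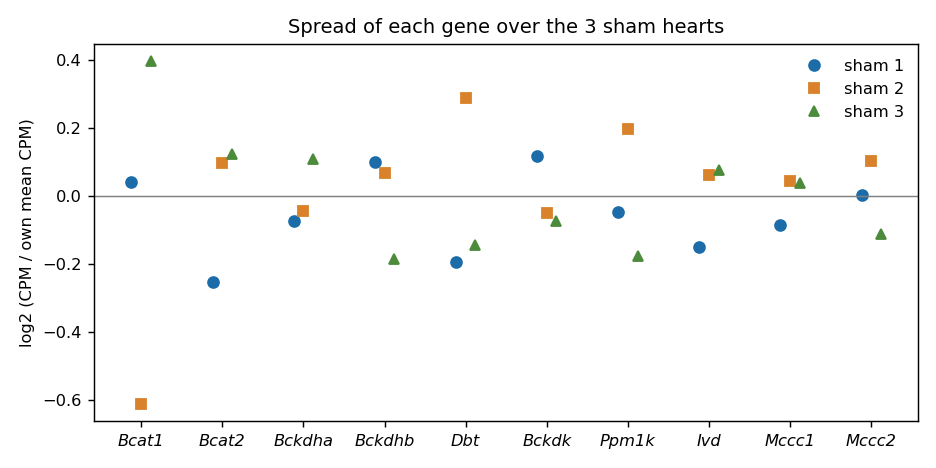
Each gene's log2 ratio of CPM to its own mean in sham 1, 2 and 3. Bcat1 spreads from -0.610 in sham 2 to 0.396 in sham 3, Dbt stands at 0.288 in sham 2, and the other 8 genes stay within 0.252 of their mean.

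Genes with the most similar pattern over the 3 hearts were sought among those with a mean of at least 10 CPM, by the root mean square difference in log2 deviation from the own mean. For Bcat1 these were Frmd4b (0.0112), Adgra2 (0.0237) and Sema3f (0.0265), but the pattern of Bcat1 itself lies within counting error, so these name no likeness beyond it. For Bcat2 they were Micall1 (0.0054), Ogdhl (0.0059) and Sema3b (0.0065), for Bckdk Extl1 (0.0006), Dnajc30 (0.0011) and Ptp4a2 (0.0013), and for Ppm1k Rwdd4a (0.004), Cisd3 (0.0071) and Prepl (0.0098). Of 8751 genes compared, 732 lay within 0.1 of Bcat2, 2869 of Bckdk and 798 of Ppm1k, so with 3 hearts such likeness was common for these genes. It was rarer for Bcat1, with 73 of 8752 genes.

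The other listed genes of the branched-chain route were present throughout, and all 20 averaged at least 1 CPM. Among the isoleucine and valine enzymes, Acat1, the thiolase of the isoleucine branch, had the highest level per coding kilobase at 566.9 ± 22.2 CPM per kb. The hydratase Echs1 followed at 426.2 ± 18.9 and Hibadh, a dehydrogenase of the valine branch, at 323.9 ± 14.8. This order rests on the length: with transcript length Echs1 came first (239 ± 10.6, against 212.3 ± 8.32 for Acat1), and with all annotated exons Echs1 took place 4 and Hibadh place 5. The lowest were the isobutyryl-CoA dehydrogenase Acad8 at 39.2 ± 3.77, the hydrolase Hibch at 96.9 ± 1.18 and the short branched-chain dehydrogenase Acadsb at 142.6 ± 5.45 CPM per kb. These took places 8, 7 and 6 of 8 with each of the 3 lengths. Ivd, the leucine counterpart of Acad8 and Acadsb, was above both in every heart with each of them, at 368.3 to 430.7 CPM per coding kilobase.

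Propionyl-CoA, a product of isoleucine and valine, is carboxylated by Pcca and Pccb to methylmalonyl-CoA. That product is epimerised by Mcee and rearranged by Mmut to succinyl-CoA. The means were 54.5 ± 5.41, 93.8 ± 0.890, 110.4 ± 5.01 and 57.7 ± 1.55 CPM per kb. Among carriers, Slc25a44, which brings branched-chain amino acids into mitochondria, gave 29.6, 30.6 and 27.7 CPM per kb in sham 1, 2 and 3. At the plasma membrane Slc3a2, the heavy chain of the amino acid exchanger, averaged 33.1 ± 1.79 and its light chain Slc7a5 4.92 ± 0.817. The related carriers Slc43a2 and Slc43a1 averaged 11.0 ± 0.159 and 1.04 ± 0.547 CPM per kb, the second from 32, 13 and 18 counts. Klf15, a transcription factor known to drive branched-chain amino acid breakdown in muscle, gave 71.9, 71.3 and 45.6 CPM and was lowest in sham 3.

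**Figure D5:**
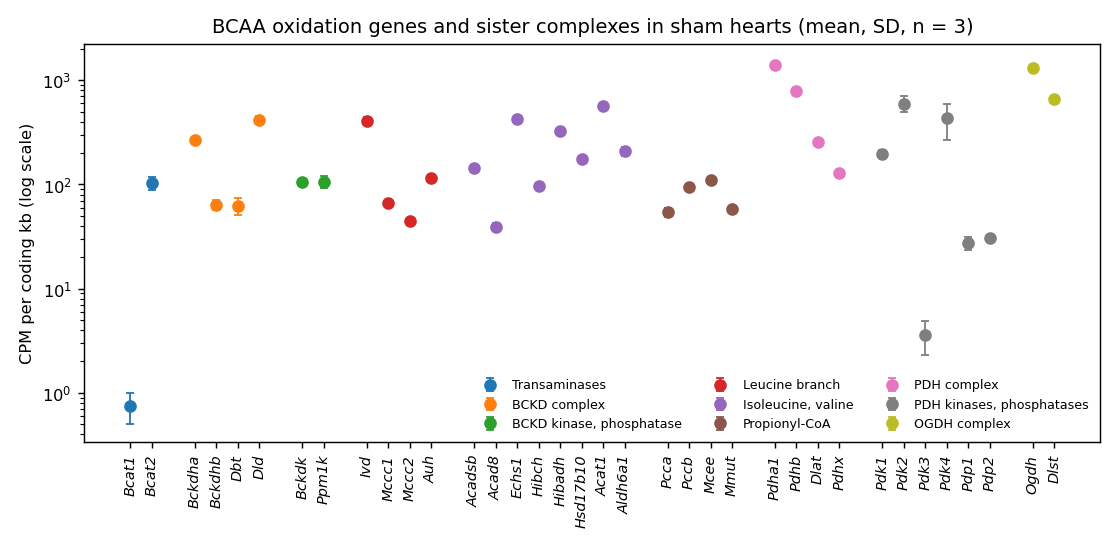
Mean CPM per coding kilobase with SD over 3 sham hearts (log axis) for the branched-chain route and the pyruvate (PDH) and 2-oxoglutarate (OGDH) dehydrogenases; BCKD is the branched-chain complex. Bcat1 is lowest at 0.749, and Pdha1 and Ogdh are highest at 1408 and 1310.

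The branched-chain complex was low beside its sister complexes. Bckdha averaged 264.6 ± 18.3 CPM per coding kilobase, against 1408 ± 89.4 for Pdha1, the E1 alpha subunit of pyruvate dehydrogenase, 789.7 ± 37.6 for its E1 beta partner Pdhb, and 1310 ± 103 for Ogdh, the E1 of 2-oxoglutarate dehydrogenase. Dbt was below the E2 genes Dlat, which exceeded it 4.58-fold, 3.59-fold and 4.28-fold, and Dlst, which exceeded it 11.7-fold, 9.22-fold and 11.1-fold. The E1 alpha to beta ratio was 3.67, 3.83 and 5.07 for Bckdha over Bckdhb and 1.71, 1.85 and 1.78 for Pdha1 over Pdhb. With transcript length Pdha1 over Pdhb was 1.03 and Pdha1 over Bckdha 3.10 (geometric means), and with all annotated exons Pdha1 over Bckdha was 2.37 and Dlst over Dbt 3.50. Bckdha stayed below Pdha1 and Ogdh, and Dbt below Dlat and Dlst, in all 3 hearts with each of these lengths. These differences were described without a test.

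Kinase and phosphatase stood in another proportion there. Per coding kilobase, Bckdk over Ppm1k was 1.12, 0.847 and 1.08 in sham 1, 2 and 3. On that scale the pyruvate dehydrogenase kinases Pdk1 to Pdk4 together exceeded the phosphatases Pdp1 and Pdp2 together 22.5-fold, 17.8-fold and 24.1-fold. The difference of the log2 ratios, Bckdk-Ppm1k minus Pdk-Pdp, was -4.32, -4.39 and -4.49 in sham 1, 2 and 3, a mean of -4.40 ± 0.082 (SD, n = 3; exact sign-flip permutation p = 0.25, the smallest possible). This comparison was chosen after the values were seen. Among these kinases Pdk2 averaged 598.9 ± 104 and Pdk3 3.58 ± 1.27 CPM per kb. Pdk4, known as the fasting-induced form in muscle, gave 432.8, 269.9 and 595.5 CPM per kb in sham 1, 2 and 3. Without Pdk4 the mean difference was -3.77. Ppm1k over the sum of Pdp1 and Pdp2 was 1.75, 1.92 and 1.79 per coding kilobase, but 0.736, 0.820 and 0.791 with transcript length and 0.959, 1.06 and 1.00 with all annotated exons, so no order is given. Pdp1 and Pdp2 averaged 27.3 ± 3.84 and 30.8 ± 2.00 CPM per coding kilobase.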

How the data were processed

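The authors deposited raw counts per gene symbol, 1 column per heart. Trimmomatic, HISAT2, HTSeq, DESeq and build mm9 are named, per the submitters' processing notes; their versions and settings, the annotation and the strandedness are not stated there. Columns were matched to hearts by name.

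CPM used column totals. Coding lengths came from GENCODE M21 (GRCm38), as the longest complete coding sequence, for all 10 members and 32 companion genes (Mmut through its older symbol). That build differs from mm9, so no coordinates are printed. Ratios of counts per coding kilobase were tested by exact two-sided sign-flip permutation over 3 hearts, adjusted over 7 ratios. TMM factors came from edgeR 4.0.16 in R 4.3.3; other steps used Python 3.11.15, scipy 1.17.1 and biopython 1.88. No test was run across all genes. Functions were tested on simulated data.

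Named were all members, every gene of companion lists of 5 or fewer, and of longer lists the 3 highest, the 3 lowest and any with a CV of at least 30%; 1 further companion is left out of all values and counts, and nearest patterns left out Gm, Rik and clone names. Members, lists and tests were chosen with earlier results of these data known.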

Additional observations from a re-analysis of the deposited data

How the results depend on the processing

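Over 28 alternatives for the 7 ratios (no length, a pseudocount of 0.5 counts, transcript length, all annotated exons), 27 kept the sign of the mean log2 ratio; Mccc1 over Mccc2 turned to -1.058 with all annotated exons. Among the ratios without a test, Ppm1k over Pdp1 and Pdp2 turned to -0.355 with transcript length and Bckdhb over Dbt to -0.263 without length (mean log2). Transcript and all-exon lengths were added after the data had been seen. None of these tests could pass 0.05, so the kept signs say nothing about significance. A kept sign also says nothing about size: the mean log2 ratio of Bckdk over Ppm1k went from 0.012 with coding length to 0.867 with transcript length. Levels changed by under 1% with TMM factors and by 16.2% to 16.6% when the 10 highest rows were left out of the totals. With TMM the CV was 7.79% for Mccc1 and 11.3% for Mccc2, each over 1.5 times its value by column totals, and the other 8 stayed within 1.5 times. With only rows of at least 1 CPM on average as the comparison, Bcat1 moved to percentile 0.2. A mean of 3 never moves by 1 SD when a heart is dropped, so those values say little; Bckdk over Ppm1k changed sides of 1 without sham 1 or sham 3. Without length, with all annotated exons and with transcript length the Bckdk-Ppm1k minus Pdk-Pdp difference was -3.81, -3.57 and -3.43. Limited to the 8111 rows with at least 10 counts in every column, the mean correlation of CKD with sham columns was 0.0055, against -0.0555 over all rows. Of the members, only Bcat1 had a counting error (29.3%) close to its CV. No paired analysis was possible, since the labels name no pairs of sham and CKD hearts. The CKD columns have no usable row labels, so the groups were not compared.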
